A study of Arabidopsis thaliana with 8 samples.

Results

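Whole seedlings of Arabidopsis thaliana that carry the rice gene OsSHMT3 were compared with wild-type seedlings while neither had received salt. The comparison takes 4 of the 8 arrays of the series, the 2 overexpresser control arrays and the 2 wild-type control arrays, chosen by their labelled genotype and stress. It covers 22746 probe sets, the sets of short oligonucleotides that each read a transcript on the Affymetrix ATH1 array. The wider study asked how the rice gene affects seedlings under salinity, so these 4 arrays show how the genotypes stood before any salt was given. The seedlings were 14 days old, were grown hydroponically in MS medium and had genotype WT or OsSHMT overexpression (here OE). The remaining 4 arrays hold the same genotypes after 150 mM NaCl for 24 h. They add to the estimate of the spread, and they show which differences were measured again in other seedlings.

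In the overexpresser, the rice coding sequence stands behind the constitutive pENTCUP2 promoter in the pORE-E2 vector, in the Col-0 background, in homozygous plants of the T3 generation selected on kanamycin. Wild-type carries neither vector nor selection marker. The methods name line OE3 in one sentence and line OE5 in the next, and the study's results speak of OE5 for the arrays, while the labels name no line. If the arrays hold 1 insertion line, effects of its insertion site cannot be told apart from effects of the transgene. No probe set here is named for the rice gene or for an Arabidopsis serine hydroxymethyltransferase, so the overexpression itself was not checked on these arrays. Serine hydroxymethyltransferase moves a carbon from serine to tetrahydrofolate and leaves glycine. In leaves its mitochondrial form works in photorespiration, where glycine made from the oxygenase reaction of Rubisco is turned back to serine. The same carbon units feed methionine and S-adenosylmethionine, the methyl donor for choline, lignin and many other products.

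Of the shoot markers, 1 of 14 was measured. This was RCA (Rubisco activase), a leaf gene, which read between 12.71 and 12.74 on the log2 scale on all 4 control arrays. Of the flower and pollen markers, 5 of 13 were measured, and their mean log2 signal lay between 4.46 and 4.71. The 4 measured root markers of 17 had a mean log2 signal of 4.94 on both wild-type arrays and of 5.61 and 5.40 on the OE arrays. Array distributions differed between genotypes: the wild-type control arrays had medians of 6.32 and 6.27 and interquartile ranges of 3.74 and 3.67, and the OE control arrays had medians of 6.00 and 6.08 and interquartile ranges of 3.27 and 3.26. Of the salt-treated arrays, OE NaCl replicate 1 had the narrow shape, with an interquartile range of 3.30, and OE NaCl replicate 2 had the wide shape of the wild-type arrays, with 3.81. The SD over probe sets of the difference between replicate arrays was 0.21 in WT control and 0.43 in OE control. In WT NaCl it was 0.12 and in OE NaCl 0.55. The fit below took the same spread for all 4 groups, although these values were unequal.

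At an adjusted p under 0.05 in limma, 4580 probe sets (20.1%) differed between the genotypes. In OE control 1842 were higher than in WT control, which is 8.10% of those tested, and 2738 were lower, which is 12%. A mean log2 signal of 5 or more in at least 1 genotype was reached by 2651 of the lower probe sets, by 1431 of the higher ones and by 16034 of all 22746. In those 2651 the median log2 fold change was -1.01, and in those 1431 it was 0.91. Of the higher probe sets, 824 had a wild-type control mean under 5. All called probe sets had no overlap between the OE and the wild-type control arrays, as had 69.7% of all probe sets. The counts rest on single arrays. Without WT control replicate 1 they were 122 higher and 298 lower, without WT control replicate 2 they were 266 and 470, without OE control replicate 1 they were 785 and 1145, without either WT NaCl array 551 and 1034, and without either OE NaCl array 3849 and 4847. The split also rests on the scaling: 40.2% of the calls were higher as deposited, 49.6% after quantile normalization, 48.7% after cyclic loess and 69.0% after centring each array on its median, which moves the median of all probe sets by 0.26. With all 3 of these other scalings, 1557 of the higher and 1627 of the lower probe sets kept their call. In every alternative tried, left-out arrays included, 105 higher and 275 lower probe sets kept it. Of 108 genes and probe sets named by rule below, 70 lost their call when some array was left out. Their number was 69 without WT control replicate 1, 62 without WT control replicate 2, 48 without OE control replicate 1, 28 without OE control replicate 2, 42 without either WT NaCl array and 0 without either OE NaCl array.

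The genotype difference moved with signal. Among 7759 probe sets with a mean log2 signal under 5 over the 4 control arrays the median log2 fold change was 0.20, with 671 called higher and 210 lower. Among 3198 with a mean between 6 and 7 the median was -0.28, with 218 called higher and 647 lower. Above a mean of 11 the median was -0.04, with 51 higher and 55 lower among 592. The part of the array distributions in these medians was not tested beyond the other scalings above. The shares over all probe sets set beside gene lists below include dim probe sets. Among protein-coding probe sets with a wild-type control mean of 5 or more, 6.14% were higher and 18.4% were lower. Their median log2 fold change was -0.21.

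**Figure D1:**
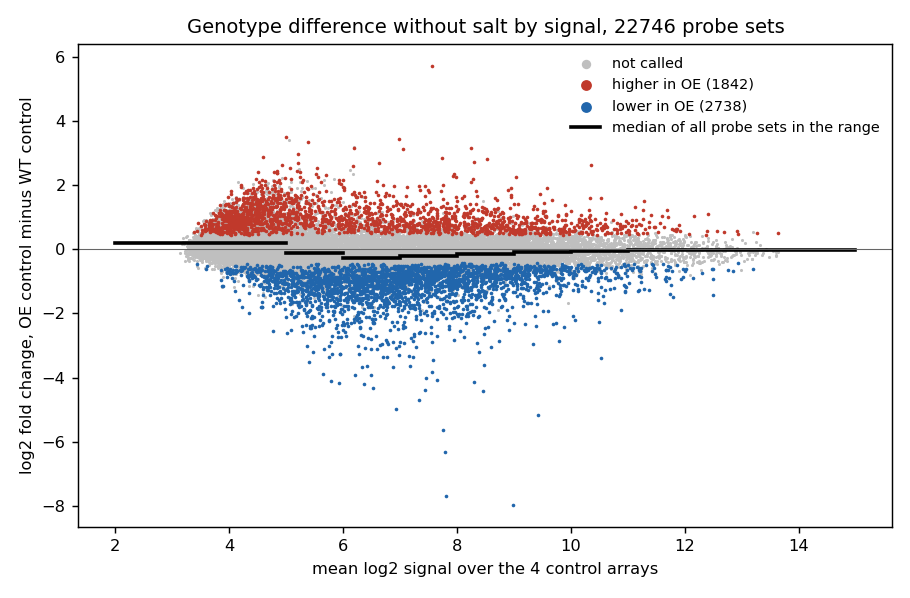
Log2 fold change of OE control minus WT control (vertical axis) against the mean log2 signal of the 4 control arrays (horizontal axis), 1 point per probe set, with called probe sets in colour and black bars for the median of all probe sets in each range of signal. The black bars lie at 0.20 below a signal of 5 and at -0.28 between 6 and 7, and the 2738 lower probe sets reach further from 0 than the 1842 higher ones.

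The methods give a limit on P (0.05) and on the log fold change (2), which was taken here as an unadjusted P and a log2 change in either direction. At that limit 72 probe sets (0.317%) were higher and 213 (0.936%) were lower. The lower probe sets at that limit numbered between 207 and 261 when any 1 array was left out, and the higher ones between 52 and 204. Both upper ends came without OE control replicate 2 and both lower ends without WT control replicate 1.

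The strongest differences were losses of signal in OE. AT2G25510, a protein-coding gene with no name in the annotation used, had log2 signals of 12.94 and 13.01 in WT control and of 4.96 and 5.05 in OE control. It went from among the brightest transcripts of wild-type to the level of dim probe sets in OE, with a log2 fold change of -7.97 (adjusted p = 1.03e-06, SE 0.12). AT1G66100 read 10.76 and 11.13 in WT control against 4.44 and 4.81 in OE control, a log2 fold change of -6.32 (adjusted p = 3.58e-05, SE 0.19). ECS1, known for a cell wall protein, read 11.81 and 12.22 in WT control and 6.84 on both OE arrays, a log2 fold change of -5.18 (adjusted p = 0.00245, SE 0.53). In all 3 genes the gap between genotypes was many times that between replicates.

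AT1G23960 read 9.75 and 9.63 in WT control and 5.16 and 4.79 in OE control. AT5G45500 read 8.79 and 8.56 against 4.62 and 4.11, and AT3G43740 read 8.72 and 8.20 against 3.83 and 4.70. Their log2 fold changes were -4.71, -4.31 and -4.20, and all but one of these OE readings were under 5. CYP71B34, a cytochrome P450 monooxygenase, was level between replicates, at 7.61 and 7.58 in WT control and 3.78 and 3.61 in OE control, with a log2 fold change of -3.90 (adjusted p = 4.65e-05, SE 0.14). The remaining 5 of the 12 lowest named genes were AT2G29290, AT1G76960, AT5G44580, AT4G16870 and AT3G48650, with log2 fold changes between -3.82 and -3.50 and adjusted p between 0.000393 and 0.00143. AT4G16870 is annotated as a pseudogene and AT3G48650 as a transcribed pseudogene. All 12 calls held in every alternative tried, with an adjusted p of at most 0.038, and in all 12 both OE NaCl arrays also lay below both WT NaCl arrays.

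**Figure D2:**
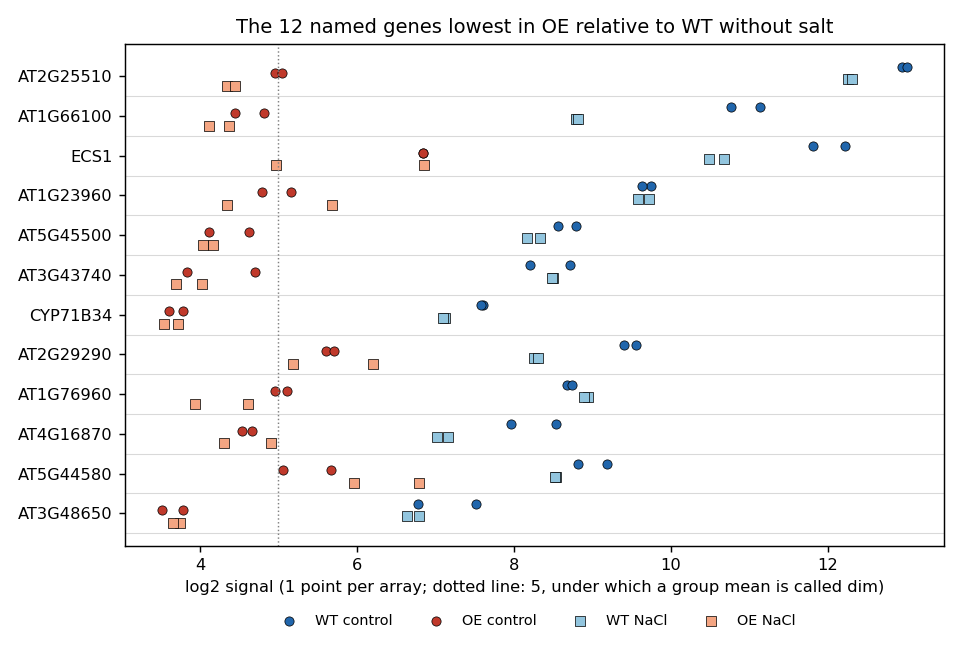
Log2 signal on each of the 8 arrays (1 point per array, horizontal axis) for the 12 named genes with the most negative log2 fold change without salt, with circles for control arrays and squares for NaCl arrays. In every row the OE points lie left of the wild-type points in both conditions, and for AT2G25510 the OE control arrays stand at 4.96 and 5.05 against 12.94 and 13.01.

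Among probe sets with no gene name here, the lowest behaved like the lowest named genes. The lowest of them read 11.53 and 11.77 in WT control against 4.02 and 3.92 in OE control, a log2 fold change of -7.68 (adjusted p = 3.58e-05, SE 0.24). The next had a log2 fold change of -5.63, and the 2 highest had 3.43 and 2.85. All 4 were called in every alternative. Of all called probe sets, 738 higher and 1113 lower ones carry no name, and these are described here by such counts alone.

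The highest named gene in OE was AT3G48640, a protein-coding gene with no further name, which read 4.56 and 4.86 in WT control and 10.44 and 10.40 in OE control. It went from dim to bright, with a log2 fold change of 5.71 (adjusted p = 2.48e-05, SE 0.15). AT5G55450 was already expressed in wild-type, at 5.97 and 7.35, and read 9.88 and 9.78 in OE control (log2 fold change 3.17, SE 0.39, adjusted p = 0.00426). AT5G15360 read 4.65 and 4.59 against 7.66 and 7.87, and AT1G52810 read 5.53 and 5.43 against 8.62 and 8.60. Both had replicates close to each other and log2 fold changes of 3.15 and 3.13. AT4G19470 had a log2 fold change of 2.96 (adjusted p = 0.00177, SE 0.27). The mitochondrial gene ccb382 (ccmFN1), which encodes a factor for attaching haem to cytochrome c, read 6.66 and 7.57 in WT control and 9.92 and 9.95 in OE control, a log2 fold change of 2.82 (adjusted p = 0.00217, SE 0.27). These 6 calls held in every alternative tried, and in each both OE NaCl arrays also lay above both WT NaCl arrays.

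The other 6 of the 12 highest named genes had another pattern over the arrays. AT3G42500, a pseudogene, read 3.27 and 3.24 in WT control and 7.63 and 5.86 in OE control. In the salt-treated seedlings it read 6.45 on OE NaCl replicate 1 and 3.28 on OE NaCl replicate 2, where wild-type stood at 3.30 and 3.11. So 3 of the 4 OE arrays were high and OE NaCl replicate 2 was at the wild-type level. PIPK11, a phosphatidylinositol phosphate kinase, read 3.81 and 3.91 in WT control, 6.74 and 6.36 in OE control, and 5.86 and 3.84 on OE NaCl replicates 1 and 2. AT1G35143, AT1G41600 and AT3G16670 read 3.16, 3.79 and 4.80 on OE NaCl replicate 2 and 5.70, 5.81 and 7.06 on OE NaCl replicate 1. AT3G32080 was in between on OE NaCl replicate 2, at 4.86 against 6.39 on replicate 1. Of these 6, 4 are annotated as pseudogenes, and the 3 OE arrays on which they were high are those with the narrow distribution.

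Their log2 fold changes in control ran from 2.59 (AT3G16670) to 3.49 (AT3G42500), with SE between 0.43 and 0.97. All 6 calls ended without WT control replicate 1, with an adjusted p of 0.0667 for AT3G32080 and between 0.141 and 0.206 for the others. Except for AT3G32080 they also ended without WT control replicate 2 or OE control replicate 1, and those of AT3G42500, AT1G35143, AT1G41600 and AT3G16670 without either WT NaCl array. AT3G42500, AT1G41600 and AT3G16670 were also lost without OE control replicate 2.

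**Figure D3:**
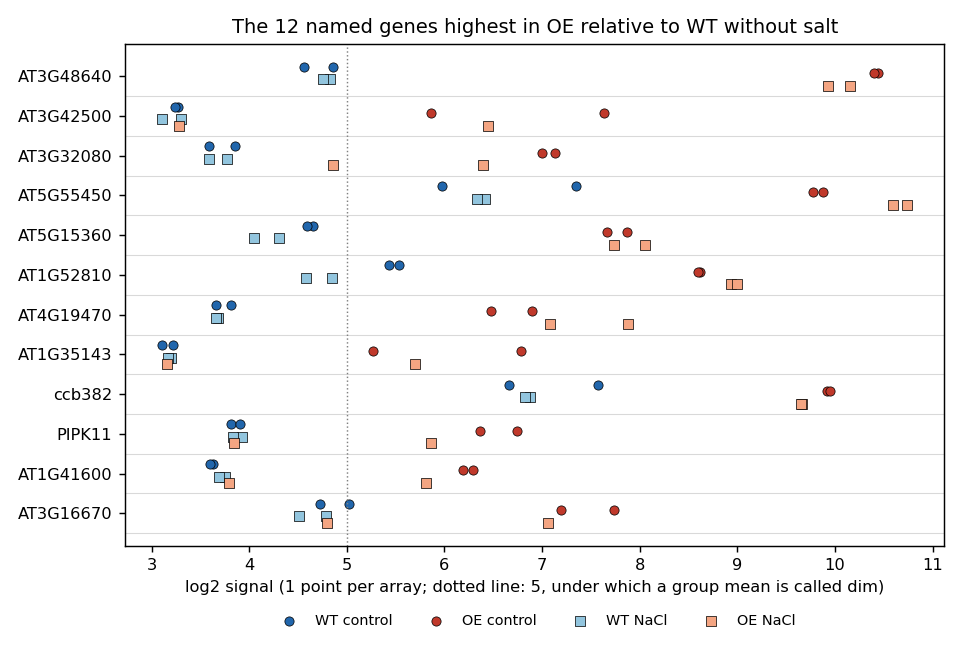
Log2 signal on each of the 8 arrays (1 point per array, horizontal axis) for the 12 named genes with the largest positive log2 fold change without salt, with circles for control arrays and squares for NaCl arrays. AT3G48640 stands apart in OE in both conditions, whereas for AT3G42500, AT1G35143 and PIPK11 one OE NaCl square lies among the wild-type points.

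The same pattern showed across the higher probe sets. Of 56 higher by more than 2 on the log2 scale, with a mean of 5 or more in at least 1 genotype, 53 were more than 1 above the WT NaCl mean on OE NaCl replicate 1. On OE NaCl replicate 2 they were 23, and 32 lay within 0.5 of that mean. A higher probe set can pass this filter on signal through OE alone. Of the 1431 that passed it, 413 had a wild-type control mean under 5. Past the same log2 limit of 2 the lower probe sets leaned less on a single array. Of 211 that were lower by more than 2, 173 were more than 1 below the WT NaCl mean on OE NaCl replicate 1. On OE NaCl replicate 2 they were 132. At a limit of 1 both directions leaned on OE NaCl replicate 1. Of 1351 lower probe sets that passed the filter on signal, 755 were more than 1 below the WT NaCl mean on replicate 1 and 357 on replicate 2. Of 612 higher ones, 316 and 130 were more than 1 above it. Pseudogenes took part in the first pattern: 130 of 989 named pseudogene probe sets (13.1%) were higher and 11 (1.11%) were lower, against 925 (7.43%) and 1517 (12.2%) of 12443 protein-coding ones. In WT control 93.9% of the pseudogene probe sets had a mean under 5. Among probe sets under 5 there, 13.5% of the pseudogenes and 9.73% of the protein-coding genes were higher. After quantile normalization 92 pseudogene probe sets were higher and 17 were lower, and after median centring 266 and 7. The 130 pseudogene probe sets called higher had a median excess over the WT NaCl mean of 0.63 on OE NaCl replicate 1 and of 0.09 on replicate 2. The part of the array distribution in this was not tested.

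Of the dim probe sets, those with a mean under 5 in both genotypes, 411 were higher and 87 were lower. The lowest were AT1G72580, AT5G20460 and UGT84B1, with log2 fold changes of -1.57, -1.11 and -1.07. The highest were the pseudogenes AT4G07700 and AT5G37080 and the gene AT4G07350, with 1.81, 1.71 and 1.60. The calls of all 6 ended without WT control replicate 1 (adjusted p between 0.0769 and 0.197) and without WT control replicate 2.

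Some of the strongest differences lay beside or near each other on a chromosome. Of 13211 genes placed on the nuclear chromosomes of TAIR10.1, 158 were called with a log2 fold change beyond 2 in size, and 6 pairs of them were neighbours among the measured genes. AT3G48640, the highest gene in OE, stands next to AT3G48650, a transcribed pseudogene that was lower, at 7.52 and 6.78 in WT control against 3.52 and 3.78 in OE control (log2 fold change -3.50). The 2 neighbours thus changed in opposite directions, in seedlings with and without salt. AT1G66090, near AT1G66100, was lower as well, at 7.19 and 7.26 against 4.22 and 4.45 (log2 fold change -2.89, SE 0.21, adjusted p = 0.000664), with 1 annotated gene between them. The pair AT4G05240 and AT4G05250 was higher together, with log2 fold changes of 2.37 and 2.39, and AT4G27654 and AT4G27657 were lower together, with -2.16 and -2.02. In these pairs the readings ran close to each other on every control array (3.56 and 3.61 on WT control replicate 1, 6.67 and 6.75 on OE control replicate 1 for the first pair), and whether the probes tell the neighbours apart was not tested. The opposite pairs AT4G31530 with AT4G31570, which have 4 annotated genes between them, and AT5G48780 with AT5G48790 complete the 6. Without WT control replicate 1 the calls of AT4G05240, AT4G05250, AT4G27654, AT4G27657, AT5G48780 and AT5G48790 ended (adjusted p between 0.0748 and 0.213), and those of the other neighbours held in every alternative.

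Late embryogenesis abundant (LEA) proteins are small hydrophilic proteins that accumulate in drying seeds and in leaves short of water, where they protect membranes and enzymes. Of 20 measured LEA genes, 9 were lower and 1 was higher in OE without salt, with a median log2 fold change of -0.60. Over all probe sets 12% were lower and the median was -0.02. Of the 20 genes, 13 had a mean of 5 or more in at least 1 genotype. Over all probe sets with such a mean the median was -0.14. AtLEA4-1 read 8.48 and 8.46 in WT control against 5.24 and 5.52 in OE control, a log2 fold change of -3.09 (adjusted p = 0.000155, SE 0.14). The gene named LEA read 7.53 and 7.79 against 5.88 and 4.92, a log2 fold change of -2.26 (adjusted p = 0.00513, SE 0.29). AT3G17520 and AT3G02480 had log2 fold changes of -2.17 and -1.99. In these 4 genes the genotypes did not overlap, and the gap between replicates was widest for LEA in OE. The one higher member, AT5G27980, stood near the floor, at 4.42 and 4.49 in WT control and 5.28 and 5.31 in OE control. The calls of AtLEA4-1, AT3G17520 and AT3G02480 held in every alternative, and that of LEA ended without either WT control array (adjusted p = 0.0534 at most). That of AT5G27980 ended without WT control replicate 1 (adjusted p = 0.086). The 9 lower LEA genes were 4 without either WT control array.

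Seed storage proteins feed the germinating embryo and are normally used up in the first days of growth. Their transcripts were bright in these seedlings, between 8.36 and 9.38 on the WT control arrays and between 7.10 and 8.98 on the OE control arrays for the 5 measured genes of 18 listed. Of these, 3 were lower in OE and none was higher, beside 12% lower and 8.10% higher over all probe sets. PAP85, a vicilin-like storage protein, read 9.28 and 9.30 against 7.99 and 7.86, a log2 fold change of -1.37 (adjusted p = 0.00434, SE 0.17). AT1G03890 and AT2G28490 had log2 fold changes of -1.21 and -1.20. OLEO3, an oleosin of oil bodies, was at -0.19 (adjusted p = 0.306, SE 0.13). No probe set named a seed marker of the separate marker list of 13 alone, and the part of seed material in these levels was not tested. The call of PAP85 ended without WT control replicate 1 (adjusted p = 0.0534) and that of AT1G03890 without WT control replicate 2 (adjusted p = 0.0525).

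Under NaCl the 5 seed storage genes were all higher in OE, with a median log2 fold change of 3.59. Of the 20 LEA genes, in contrast, 5 were higher and 3 were lower, with a median of 0.09. Over all probe sets 4.12% were higher and 4.92% were lower under NaCl. AT3G17520 and AT3G02480, lower without salt, were at 0.25 and 0.40 under NaCl (adjusted p = 0.415 and 0.348). AtLEA4-1 was higher in OE by 0.82, LEA by 2.3, PAP85 by 3.59, AT2G28490 by 3.82 and AT1G03890 by 5.63, each with an adjusted p under 0.05. For these 5 genes the interaction was called, with values between 3.91 (AtLEA4-1) and 6.84 (AT1G03890). From control to NaCl all 5 fell in wild-type, with log2 changes between -0.69 (AtLEA4-1) and -4.16 (AT1G03890, to a mean of 4.32). In OE all 5 rose, by between 2.22 (AT2G28490) and 3.22 (AtLEA4-1). CYP78A9, a P450 gene of seed and fruit growth, had the same signs. It read 8.81 on both WT control arrays and 5.71 and 5.80 in OE control, a log2 fold change of -3.06 (adjusted p = 9.17e-05, SE 0.12), and was higher by 2.18 in OE under NaCl. Over all probe sets, 109 were lower in OE without salt and higher in OE under salt with the interaction called, and 4 went the opposite way, where 1.65% of all probe sets had a called interaction (1.23% positive and 0.422% negative).

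Glucosinolates are sulphur-containing defence compounds of the cabbage family that begin, in part, with methionine. Of 4 measured genes of 26 listed, 3 were lower in OE without salt and none was higher, with a median log2 fold change of -1.48. Over all probe sets 12% were lower and 8.10% were higher. The 3 were 1 without either WT control array. BCAT4, the aminotransferase that sends methionine into chain elongation, read 11.07 on both WT control arrays and 8.98 and 9.01 in OE control, a log2 fold change of -2.08 (adjusted p = 0.000523, SE 0.14). UGT74B1, which adds the glucose, read 8.59 and 8.57 against 5.11 and 6.54, a log2 fold change of -2.76 (adjusted p = 0.0128, SE 0.48). The OE replicates of UGT74B1 lay far apart, but both were below wild-type. AOP3, which modifies the side chain, had a log2 fold change of -0.89 and was not called after quantile, median or cyclic loess scaling (adjusted p between 0.0522 and 0.0597). BCAT4 was called in every alternative, and UGT74B1 and AOP3 ended without WT control replicate 1 (adjusted p = 0.107 and 0.238).

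Flavonoids screen light and colour the seed coat. Of 7 measured genes of 20 listed, 4 were lower in OE and none was higher, with a median log2 fold change of -0.91, beside 12% lower over all probe sets. The 4 were 2 after quantile normalization, 0 without WT control replicate 1, and 1 without WT control replicate 2, OE control replicate 1 or either WT NaCl array. BAN, the anthocyanidin reductase that makes seed coat tannins, read 8.72 and 8.46 in WT control and 7.13 and 7.27 in OE control, a log2 fold change of -1.39 (adjusted p = 0.0038, SE 0.17). The flavonol glycosyltransferases UGT78D1 and UGT78D2 had log2 fold changes of -1.97 (SE 0.55) and -1.31 (SE 0.28). CHIL, a chalcone isomerase-like protein, had -0.91, and its call was lost after each of the other scalings. DFR, which reduces dihydroflavonols, was at -0.48 (adjusted p = 0.185, SE 0.24). All 4 calls ended without WT control replicate 1, with an adjusted p of 0.0507 for BAN and between 0.162 and 0.213 for the others. BAN had a wider genotype difference under NaCl, -4.22, and that widening was called (interaction -2.83, adjusted p = 0.00176).

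UDP-glycosyltransferases attach sugars to hormones, sterols and secondary metabolites. Of 51 measured genes, 11 were lower and 1 was higher in OE, with a median log2 fold change of -0.24 that turned to 0.02 with median centring, beside 12% lower and 8.10% higher over all probe sets. The 11 were 0 without WT control replicate 1, 1 without WT control replicate 2, 3 without either WT NaCl array, 5 and 4 without OE control replicates 1 and 2, 20 without either OE NaCl array and 2 in the unmoderated model. Besides UGT74B1, UGT78D1 and UGT78D2, the lower genes included UGT80B1, which glucosylates sterols, at 7.60 and 7.23 against 6.15 and 6.36 (log2 fold change -1.16, SE 0.17, adjusted p = 0.007). The one higher gene was UGT84A3, at 0.66. Among 14 glutathione transferases, which conjugate glutathione to reactive compounds, 3 were lower and none was higher. GSTU15 read 5.91 and 5.66 against 4.18 and 4.38, a log2 fold change of -1.50 (adjusted p = 0.00364, SE 0.17), and GSTU20 and GSTU26 had -1.11 and -0.80. Of 23 cytochrome P450 enzymes, 4 were lower and 3 were higher, beside the same 12% and 8.10% over all probe sets. The 3 were 0 without either WT control or either WT NaCl array. Besides CYP71B34 and CYP78A9, CYP71B26 was lower by 1.68 on the log2 scale and CYP71B30P was higher by 1.25. GSTU15 was called in every alternative. UGT80B1, UGT84A3, GSTU20, GSTU26, CYP71B26 and CYP71B30P ended without WT control replicate 1 (adjusted p between 0.0674 and 0.202).

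**Figure D4:**
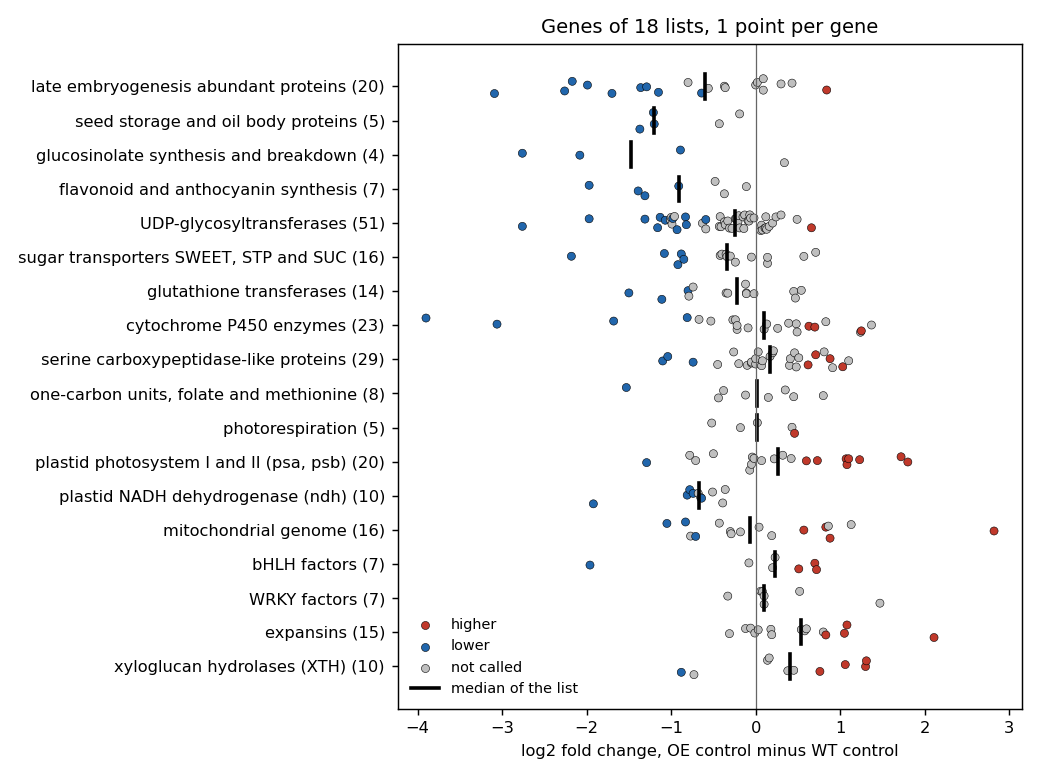
Log2 fold change of OE control minus WT control (horizontal axis) for the measured genes of 18 lists, 1 point per gene, with the number of genes in brackets, called genes in colour and a black bar at the median of the list. LEA, seed storage, glucosinolate and flavonoid genes lie mostly left of 0, and expansins, XTH and psa and psb genes mostly right of it.

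Sugar transporters carry sucrose, glucose and fructose across membranes. Of 16 measured SWEET, STP and SUC genes, 5 were lower in OE and none was higher, with a median log2 fold change of -0.34. Over all probe sets 12% were lower and 8.10% were higher. All 5 were SWEET genes, which let sugars flow down their gradient. The 5 were 1 without WT control replicate 1 and 3 without WT control replicate 2. SWEET4 read 7.68 and 7.63 in WT control and 5.14 and 5.81 in OE control, a log2 fold change of -2.18 (adjusted p = 0.00306, SE 0.24). SAG29 (SWEET15) had -1.08, SWEET8 had -0.92, SWEET2 had -0.88 and SWEET10 had -0.85. SWEET4 was called in every alternative. SAG29, SWEET8, SWEET2 and SWEET10 ended without WT control replicate 1 (adjusted p between 0.101 and 0.159). Of 12 nitrate transporters, AT3G21670 was lower by 1.06 on the log2 scale and AT1G68570 was higher by 0.47, and both calls ended without WT control replicate 1 (adjusted p = 0.133 and 0.226).

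The list for one-carbon units, folate and methionine, the pathways of the enzyme carried by the transgene, holds 39 genes. Of these 8 were measured, and AT1G73600 alone was called, as lower. Over all probe sets 12% were lower and 8.10% were higher. With the intensity trend 2 of the 8 were higher and 2 were lower, and with median centring 3 were higher and 1 was lower. AT1G73600 read 7.18 and 7.01 in WT control and 5.74 and 5.39 in OE control, a log2 fold change of -1.53 (adjusted p = 0.00252, SE 0.16). It was called in every alternative. PMEAMT, a methyltransferase on the way to choline, was at 0.15 (adjusted p = 0.461, SE 0.15) and MMT, which methylates methionine, at -0.44 (adjusted p = 0.0698, SE 0.15). HMT-1, a homocysteine methyltransferase, read 6.21 and 6.13 against 7.22 and 6.71 and missed the limit (log2 fold change 0.80, adjusted p = 0.0558). The median of the 8 genes was 0.02.

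Of 5 measured photorespiratory genes of 18 listed, 1 was higher and none was lower, where 8.10% and 12% of all probe sets were. The higher gene was HPR, the hydroxypyruvate reductase of peroxisomes, at 11.80 and 11.90 in WT control and 12.31 on both OE arrays (log2 fold change 0.46, SE 0.12, adjusted p = 0.0402). AT1G11860 was at 0.43 (adjusted p = 0.0516, SE 0.13), AT1G32470 at -0.18 and AT2G35120 at -0.52 (adjusted p = 0.0715, SE 0.17). The call of HPR ended without either WT control, WT NaCl or OE control array (adjusted p = 0.208 at most) and with only the 4 control arrays in the fit (adjusted p = 0.0689).

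Both measured genes of proline metabolism were lower, where 12% of all probe sets were. DELTA-OAT, the ornithine aminotransferase, read 9.0 and 8.83 in WT control and 7.43 and 7.56 in OE control, a log2 fold change of -1.42 (adjusted p = 0.00217, SE 0.14). AT5G38710 had -1.35 (adjusted p = 0.0139, SE 0.24). Of 4 measured genes of the abscisic acid, cold and drought list, 1 was higher and 2 were lower, beside 8.10% and 12% over all probe sets. LTI30, a dehydrin, read 10.45 on both WT control arrays and 9.09 and 8.97 in OE control (log2 fold change -1.42, SE 0.13, adjusted p = 0.00177). The related cold genes went apart: COR15B, which protects chloroplast membranes, was at -0.51 (adjusted p = 0.0469), its relative COR15A at 0.58 (adjusted p = 0.0284) and COR47 at 0.27 (adjusted p = 0.151). DELTA-OAT and LTI30 were called in every alternative. AT5G38710, COR15A and COR15B ended without WT control replicate 1 (adjusted p between 0.112 and 0.229), and COR15B was lost in each of the other scalings too.

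Of 20 psa and psb genes, which encode the cores of photosystems I and II, 8 were higher and 1 was lower in OE. Over all probe sets 8.10% were higher and 12% were lower. psaA, a core subunit of photosystem I, read 6.67 and 6.95 in WT control and 8.58 and 8.65 in OE control, a log2 fold change of 1.80 (adjusted p = 0.00114, SE 0.15). psaC, its iron-sulphur subunit, read 8.27 and 8.94 against 10.38 and 10.26, a log2 fold change of 1.72 (adjusted p = 0.00465, SE 0.22). psbC and psbJ, both of photosystem II, had 1.23 and -1.29, so the list was not uniform. Of 10 ndh genes, which encode the NADH dehydrogenase-like complex of cyclic electron flow, 5 were lower and none was higher. ndhF read 6.58 and 7.0 against 4.86 and 4.88, a log2 fold change of -1.92 (adjusted p = 0.0187, SE 0.38), and ndhA, ndhC and ndhK had between -0.81 and -0.74. Whether the complexes differ from each other was not tested. With median centring 1 ndh gene was lower and 9 psa and psb genes were higher. The 5 lower ndh genes were 0 without any 1 of the WT control or OE control arrays and in the unmoderated model, and 1 without either WT NaCl array. The 8 higher psa and psb genes were 2 and 5 without WT control replicates 1 and 2, 4 without either WT NaCl or either OE control array, and 3 in the unmoderated model.

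Of the plastid atp and pet genes 2 of 12 were higher, atpH and atpF, of the ribosomal protein genes rpl33 was higher and rps16 and rpl36 were lower, and of the rpo genes rpoC2 was higher. Over the 69 plastid genes, 14 were higher and 8 were lower, where 8.10% and 12% of all probe sets were. These were 16 and 3 with median centring, 2 and 0 without WT control replicate 1, 5 and 0 without WT control replicate 2, 4 and 1 without either WT NaCl array or OE control replicate 1, 8 and 1 without OE control replicate 2, and 15 and 18 without either OE NaCl array. psaA and psaC were called in every alternative. With only the 4 control arrays in the fit psbC and atpF were not called (adjusted p = 0.0622 and 0.0709). The log2 fold change of psbC was 0.65 without WT control replicate 1. The calls of psbC, psbJ, ndhF, ndhA, ndhC, ndhK, atpH, atpF, rpl33, rps16, rpl36 and rpoC2 ended without WT control replicate 1 (adjusted p between 0.0855 and 0.218). Of nuclear genes, 3 of the antenna and 4 of the photosystems were measured, and none of these was called. LHCB4.1, LHCB4.2 and LHCB4.3, antenna proteins of photosystem II, had log2 fold changes of 0.23, -0.22 and 0.04, and PSAN, PSBW, PSAE-1 and PSBY had between -0.36 and 0.10. The mitochondrial genome held 4 higher and 3 lower genes of 16. Besides ccb382, the higher ones named by the rule were matR at 0.88, and the lower ones nad9 at -1.05 and nad1 at -0.83. Without WT control replicate 1 these 3 calls ended (adjusted p between 0.0712 and 0.193). The mean over the probe sets of nad1 was -0.14, and the largest adjusted p among them was 0.457.

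Growing cells loosen their walls with expansins and with xyloglucan hydrolases (XTH), which cut and rejoin the chains between cellulose fibres. Of 15 expansins, 4 were higher in OE and none was lower, with a median log2 fold change of 0.54. Of 10 XTH genes, 4 were higher and 1 was lower, with a median of 0.41. Over all probe sets 8.10% were higher and 12% were lower. The 4 expansins were 1 without either WT control array and 2 without either WT NaCl array. The 4 XTH genes were 0 without either WT control array and 2 without either WT NaCl array or OE control replicate 1. EXPA8 read 6.77 and 7.62 in WT control and 9.35 and 9.26 in OE control, a log2 fold change of 2.11 (adjusted p = 0.00466, SE 0.27). EXPA15, EXPA4 and EXPA7 had 1.08, 1.05 and 0.83. EXPA7, a gene of root hair cells, stood near the floor, at 4.72 and 4.37 against 5.18 and 5.56, and is the one called member of the root marker list. The mean of the 4 measured root markers was higher in OE, but it includes EXPA7. Of these 4, 2 had a mean of 5 or more in at least 1 genotype. The part of root tissue in the wall genes was not tested. XTH33 read 6.37 and 6.41 against 7.23 and 8.18, and XTH18 read 5.75 and 5.81 against 7.10 and 7.07. Their log2 fold changes were 1.31 and 1.30, and that of XTH19 was 1.06. EXGT-A3, the brightest of the called XTH genes, was lower, with -0.88. EXPA8 was called in every alternative, and the other 7 ended without WT control replicate 1 (adjusted p between 0.0909 and 0.148).

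In several lists of few genes the calls went both ways, where 20.1% of all probe sets were called. Of 7 bHLH factors 4 were called. The iron-related bHLH factors bHLH115, bHLH34 and bHLH121 were higher, with log2 fold changes of 0.72, 0.70 and 0.51, and bHLH104 was lower, at 9.0 and 8.83 in WT control against 6.84 and 7.07 in OE control (log2 fold change -1.96, SE 0.31, adjusted p = 0.0101). Of 4 jasmonate and defensin genes 2 were called. OSM34, an osmotin, was higher by 1.07 and PDF1.2, a defensin induced by jasmonate, was lower, with -1.32. Of 6 class III peroxidases, AT5G64120 was higher, at 5.12 and 5.0 against 6.89 and 7.04 (log2 fold change 1.90, SE 0.21, adjusted p = 0.00324), and AT3G50990 was lower, with -1.04. Of 29 serine carboxypeptidase-like genes 4 were higher and 3 were lower, beside 8.10% and 12% over all probe sets, led by scpl20 at -1.10, scpl48 at -1.04, scpl40 at 1.03 and scpl41 at 0.88. The auxin response repressors IAA31 and IAA29 had -1.39 and 0.53, and the clock gene GI had 0.70. AT5G64120 and scpl20 were called in every alternative, and the other named calls here ended without WT control replicate 1 (adjusted p between 0.0583 and 0.193).

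Of the 37 lists with a measured gene, 9 had no called gene, and these 9 hold 35 measured genes. They were picked for having no call, so this cannot be weighed against the 20.1% of all probe sets called. They comprise WRKY factors, light-harvesting proteins, nuclear photosystem subunits, cellulose synthases, histones and cell cycle genes, heat shock proteins, salicylic acid defence, iron uptake and a NAC factor. WRKY42 had the widest difference among them, at 3.87 and 4.05 in WT control and 5.78 and 5.07 in OE control (log2 fold change 1.47, SE 0.45, adjusted p = 0.0577). With an intensity trend 1 of the 3 light-harvesting genes was called higher and 1 lower, and 1 of the 4 nuclear photosystem subunits lower.

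The genotypes were compared again in salt-treated seedlings, in which 937 probe sets (4.12%) were higher and 1120 (4.92%) were lower in OE. Of the 1842 probe sets higher without salt, 405 were also called higher under salt and 5 were called lower. Of the 2738 lower without salt, 723 were called lower and 109 higher. For strong differences with a mean of 5 or more in at least 1 genotype the share was larger. Of the 211 probe sets lower by more than 2, 137 were called lower again and 16 higher. Of the 56 higher by more than 2, 23 were called higher again. Of 413 higher probe sets that reached a mean of 5 in OE alone, 10.2% were called higher again. Of 1018 with a wild-type control mean of 5 or more, 34.7% were. The median excess of the 1842 higher probe sets was 0.59 on OE NaCl replicate 1 and 0.24 on OE NaCl replicate 2, and that of the 2738 lower ones was -0.68 and -0.30. The counts of 405 and 723 fell to 71 and 208 without WT NaCl replicate 1, to 71 and 209 without WT NaCl replicate 2, to 82 and 190 without WT control replicate 1 and to 154 and 244 without WT control replicate 2. The count of 405 was 254 without OE control replicate 1. Without OE NaCl replicate 2 the counts were 2012 and 2622.

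**Figure D5:**
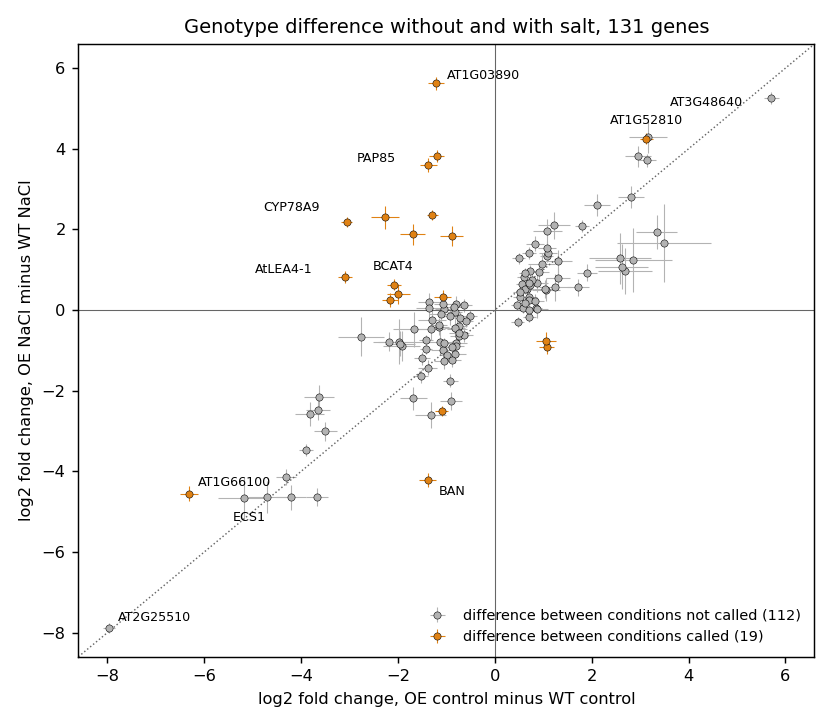
Log2 fold change of OE minus wild-type under NaCl (vertical axis) against that without salt (horizontal axis) for 131 genes, the 24 named genes and the called genes of the lists, with bars of 1 standard error and a dotted line of equal values. AT2G25510 and AT3G48640 lie near the dotted line, and most of the 19 genes in orange, whose difference between conditions was called, lie at the upper left, lower in OE without salt and higher under NaCl.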

How the data were processed

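RNA of whole seedlings was measured on 8 ATH1 arrays, 2 in each of 4 groups. The authors deposited 1 log2 value per probe set and array, made with Affymetrix Expression Console per the labels, its version and summarization method not being given in the sources used here. RNA came from Trizol extraction per the labels, whereas the methods name an RNeasy kit and triplicate RNA. The methods state biological replication, 3-fold, for the experiments in general, but neither they nor the labels say which cultures the 2 arrays of a group came from, so every p-value covers only the scatter among these arrays, possibly technical, and their small number limits precision. After 64 control probe sets were left out, the deposited log2 values were tested as they stood with limma 3.58.1 in R 4.3.3 (group means, 1 spread shared by all 8 arrays, Benjamini-Hochberg adjustment over 22746 probe sets). SE and SD are on the log2 scale. Probe sets named 1 gene in 13513 cases, several in 503 and none in 8730, and 13436 matched TAIR10.1. The brightest probe set stood for a gene with several.

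Named genes were the 12 largest changes each way among called probe sets with 1 gene, a mean of 5 or more in a genotype and no overlap, the 3 largest dim ones each way, and up to 4 called genes per list. Neighbours, unnamed probe sets and other listed genes were named after their values were seen. Members and lists were chosen with earlier results of these data known. Scripts were tested on simulated data. Alternatives were the 4 control arrays alone, an intensity trend, robust or unmoderated variances, 3 scalings, a filter on dim probe sets, array weights, a replicate block and each array left out.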

Additional observations from a re-analysis of the deposited data

Results flagged for a closer look

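For 17 of the genes named in the report the genotype difference under NaCl differed from that without salt by the test of the interaction (NaCl minus control, log2 scale, adjusted p under 0.05 in limma). In 8 of them OE was called lower without salt and higher under NaCl, with interactions of 6.84 for AT1G03890, 5.24 for CYP78A9, 5.01 for AT2G28490, 4.95 for PAP85, 4.57 for LEA, 3.91 for AtLEA4-1, 2.74 for AOP3 and 2.71 for BCAT4. AT3G17520, AT3G02480 and SAG29, with interactions of 2.41, 2.39 and 1.41, were lower without salt and not called under NaCl. AT1G66100 was lower in both conditions but less so under NaCl (1.77), and AT1G52810 was higher in both and more so under NaCl (1.12). BAN and scpl20 were lower in both conditions and further apart under NaCl (-2.83 and -1.40). OSM34 was higher without salt and lower under NaCl (-1.99), and XTH19 was higher without salt and not called under NaCl (-1.82).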

How the results depend on the processing

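An unmoderated linear model called 681 higher and 924 lower, and of the probe sets called both without and under salt it left 226 higher and 316 lower. Array weights gave 2879 higher. Median centring gave 3796 higher and 1704 lower, and 155 higher at the limit of the methods. A log2 limit of 1 gave 1066 higher and 1580 lower. With any 1 array left out the counts ran from 122 to 3849 higher and from 298 to 4847 lower, at the limit of the methods from 52 to 204 and from 207 to 261, and for probe sets called in both conditions from 71 to 2012 and from 190 to 2622. The NaCl arrays enter the comparison only through the shared spread. A replicate block gave 1666 higher and 2359 lower, and for those called in both conditions 287 and 592. Deviations of same-numbered arrays correlated between -0.205 and 0.181 across probe sets. With 2 arrays a group these values cannot tell whether same-numbered arrays shared a culture or a processing step. The other counts stayed within 1.5 times. Cyclic loess and the counts for both conditions were chosen after seeing the data. Of 108 named genes, none changed direction, 54 were called in every setting with all 8 arrays or the 4 control arrays, and 38 also with any array left out. With the 4 control arrays alone 7 of the 108 lost their call, HPR, psbC, atpF, bHLH121, IAA29, AT1G68570 and COR15B (adjusted p between 0.0608 and 0.0737). The cause of these losses was not tested. With 2 arrays a group, whether a difference of moderate size was called depended on the shared spread, and readings near the floor understate changes.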
